A study of Mus musculus with 37 samples.

Results

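The fibroblast growth factor (FGF) family and its feedback genes were followed by mRNA level in the lungs of fetal and newborn mice of 2 inbred strains. The set comprised every gene whose symbol is that of an FGF ligand, an FGF receptor (Fgfr1 to Fgfr4 and Fgfrl1), an FGF binding protein, a Sprouty (Spry1 to Spry4) or Spred gene, or Dusp6 or Etv4, and that was read by a probe set with exactly 1 gene symbol. By this rule, which uses names and no measured value, 38 of 19938 genes were members: 22 ligands, 5 receptors, 2 binding proteins, 4 Sprouty and 3 Spred genes, Dusp6 and Etv4. Spred2 had 2 probe sets, of which the one with the higher mean was used, and every other member had 1. The samples were right lungs of A/J mice taken daily from E15.5 (embryonic day) to E20.5 and at postnatal day 0 (PN0), and of C57BL/6J (B6) mice taken daily from E15.5 to E18.5 and at PN0, all without any treatment or engineered allele. Each of the 12 groups had 3 replicates, and a replicate was the pooled RNA of 3 male lungs of 1 litter. B6 pups are born about a day earlier than A/J pups, so that PN0 is an equal stage and not an equal age. Levels are log2 values of oligonucleotide arrays, and a level of one gene cannot be set against a level of another.

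Most FGF ligands are secreted growth factors that bind receptor tyrosine kinases together with heparan sulfate. In the developing lung, ligands made in the mesenchyme, such as Fgf7 and Fgf10, signal to the epithelium through Fgfr2, while Fgf9 from the epithelium and the mesothelium signals to the mesenchyme. Receptor activation runs through the RAS-MAPK cascade, which induces its own brakes (Sprouty and Spred proteins and the phosphatase Dusp6) and the ETS factor Etv4. Whole lung RNA was measured, so that fewer cells of a type and less RNA per cell cannot be told apart.

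Lung markers were present throughout, as 6 of 6 epithelial, 4 of 4 type I cell, 4 of 4 endothelial and 4 of 4 mesenchymal markers were above the array median in all 36 replicates, and 2 of 3 thymus markers were above it in none. Genes of the esophagus, liver and heart differed between litters of the same group. Of the 36 replicates, 9 lay more than 1 log2 unit above the lowest litter of their group in at least 1 of these 3 lists. The largest gap was 4.05 for the liver list in replicate 1 of B6 at E15.5. This rule compares litters within a group and does not show a gap between groups. The comparisons of PN0 with E15.5, of the strains at each age and of E18.5 with E19.5, and the interaction, were also run without these 9 replicates, while the steps between other ages were not. Array 2b of B6 at E18.5 was averaged with array 2, and the replicates of a group were correlated at 0.976 or above over all probe sets.

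Of the 38 members, 21 had a mean above the median of all probe sets of the same array and 17 had a mean below it. Over all probe sets with 1 symbol, 58.8% were above. All 5 receptors were above the median, as were 8 of 15 paracrine ligands, 3 of 4 Sprouty genes, 2 of 3 Spred genes, 1 of 2 binding proteins, Dusp6 and Etv4. None of the 3 endocrine ligands (Fgf15, Fgf21, Fgf23) and none of the 4 intracellular FGF homologues (Fgf11 to Fgf14) was above it. The ligands above the median were Fgf1, Fgf18, Fgf7, Fgf10, Fgf8, Fgf2, Fgf9 and Fgf22.

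The position was the same in every replicate for 31 members, 18 of them above in all 36 and 13 below in all 36. The other 7 crossed the median, namely Fgf9 (35 of 36 replicates above), Fgf22 (27), Fgf11 (22), Fgfbp1 (19), Etv4 (18), Spred3 (11) and Fgf4 (4). For Etv4 and Fgfbp1 the crossing followed age: the group mean of Etv4 relative to the median went from 0.95 log2 units in A/J at E15.5 to -0.39 at E20.5, and that of Fgfbp1 from -0.74 to 0.52 between the same ages. Against the median of the probe sets with 1 symbol, 18 members were above.

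**Figure D1:**
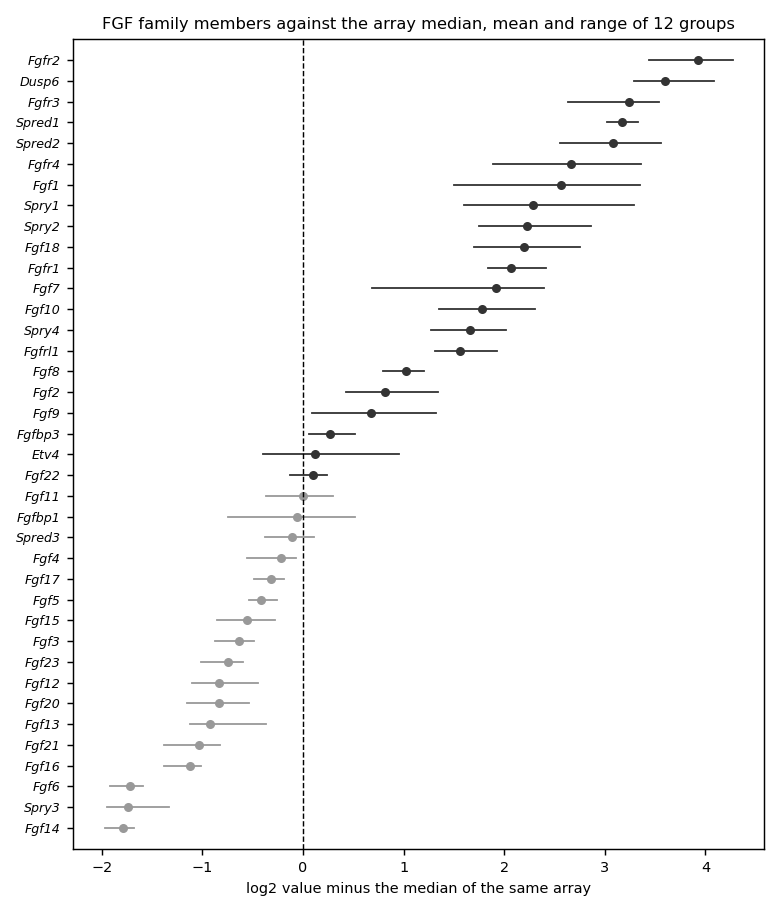
Log2 value minus the median of the same array (x axis, log2 units) for the 38 members (y axis). Points are means over 36 replicates and bars run from the lowest to the highest of the 12 group means, with the 21 members above the median in dark gray and the 17 below in light gray. The bars of Etv4 and Fgfbp1 cross the line.

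Expression of the members changed with age in both directions. From E15.5 to PN0 in A/J, 13 of 38 members were higher (21.6% of all probe sets tested) and 9 were lower (21.2%), where a call needs an adjusted p below 0.05 and a log2 difference of at least 0.32. In B6, 8 were higher (20.6%) and 6 were lower (22.4%). Over the whole course, where limma's F test had to reach an adjusted p below 0.01 and the group means had to span a fold of 2, 9 members changed in A/J (17.8% of all) and 4 in B6 (14.4%). The 4 members called in B6 were Fgf1, Fgf7, Fgf9 and Spry1, all called in A/J as well, where Fgf18, Fgfr4, Fgfbp1, Spry2 and Etv4 were added. In B6 these 5 missed only the fold, at 1.99 for Spry2, 1.97 for Etv4, 1.82 for Fgfbp1, 1.73 for Fgfr4 and 1.69 for Fgf18. The adjusted p alone was passed by 22 members in each strain. No share over all probe sets is given for that threshold, so this count cannot be read as particular to the members. The median change of the members from E15.5 to PN0 was -0.03 in A/J and -0.02 in B6, beside -0.04 and -0.0033 over all probe sets tested.

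The earliest step, from E15.5 to E16.5, involved ligands and receptors. The 6 members that rose were Fgf1, Fgf7, Fgf18, Fgfr2, Fgfr3 and Fgfr4, in A/J (4.04% of all probe sets higher) and in B6 (5.32%). None fell in A/J (1.48%), and Fgf13 fell in B6 (5.06%). By E17.5, Spry1, Spry4 and Fgfbp1 were above their E15.5 level in each strain and Etv4 and Fgfrl1 below it, with 10 members higher and 2 lower in A/J (13.6% and 15.9%) and 10 higher and 4 lower in B6 (14.2% and 16.6%). Spry2 and Dusp6 were first called higher at E18.5, in each strain, when 14 members were higher and 3 lower in A/J (25.4% and 14.4%) and 12 higher and 5 lower in B6 (18.3% and 19.2%). With each array centred on its median, the A/J counts at E18.5 became 12 higher and 9 lower. Of all 21789 probe sets tested, 3831 were then called higher and 5154 lower, instead of 5539 and 3138. The share of all calls toward higher went from 63.8% to 42.6%. Over all probe sets tested, the median change in A/J from E17.5 to E18.5 was 0.12. Of the 7 members called higher at this step (19% of all), 5 remained with centred arrays. These were Dusp6, Fgfbp1, Spred2, Spry1 and Spry2, while Fgf18 and Fgf12 lost the call and Fgf21 was called lower. Among all 21789 probe sets, centring took those called higher from 4147 to 1889 and those called lower from 587 to 1427.

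Of the ligands, Fgf1, which binds all FGF receptors, and Fgf7, the keratinocyte growth factor of the lung mesenchyme, rose most in A/J. In A/J, Fgf7 mRNA was 6.67, 7.04 and 7.45 at E15.5, lay between 8.1 and 9.06 in the 15 replicates from E16.5 to E20.5, and was 8.24, 8.47 and 8.24 at PN0. In B6, Fgf7 was 7.39, 7.66 and 7.53 at E15.5, lay between 8.27 and 8.77 in the 9 replicates from E16.5 to E18.5, and was 8.21, 8.06 and 7.93 at PN0. The 3 litters at E15.5 were below every later replicate in each strain. From E15.5 to PN0 the log2 difference of Fgf7 was 1.26 ± 0.15 (adjusted p = 8.78e-09) in A/J and 0.54 ± 0.15 (adjusted p = 0.00238) in B6 (limma, ± SE, n = 3 litters). The highest group mean was at E18.5 in A/J, 8.87 ± 0.15 (SD). In B6 the means at E17.5, 8.63 ± 0.05, and at E18.5, 8.63 ± 0.18, were equal. Relative to the array median, the highest of the 12 groups for Fgf7 was A/J at E20.5, at 2.39. The peak age of Fgf7 in A/J is therefore not settled. Replicate 1 of A/J at E15.5, the lowest of its group for Fgf7, was also 2.53 log2 units above the lowest litter of that group in liver genes and 2.98 in heart genes. Without it the A/J difference was 1.07 (adjusted p = 3e-07).

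In A/J, Fgf1 mRNA was 7.81, 8.12 and 8.38 at E15.5, lay between 8.73 and 9.91 in the 15 replicates from E16.5 to E20.5, and was 9.35, 9.47 and 9.39 at PN0. In B6, Fgf1 was 7.93, 8.09 and 7.62 at E15.5, lay between 8.6 and 9.44 in the 9 replicates from E16.5 to E18.5, and was 8.7, 8.52 and 8.64 at PN0. The E15.5 litters were again the lowest of each strain. The peak was at E19.5 in A/J, 9.8 ± 0.15, and at E18.5 in B6, 9.35 ± 0.08. PN0 exceeded E15.5 by 1.3 ± 0.11 (adjusted p = 7.14e-12) in A/J and by 0.74 ± 0.11 (adjusted p = 6.59e-07) in B6.

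The 250 bases before the start of Fgf7 are shown because this gene had the largest range over age of all members in A/J, a fold of 3.52. Sequences here are from RefSeq on build GRCm38.p6, written 5′ to 3′ on the strand of the gene, in lower case, with capitals for matches on either strand to the CCAAT box (CCAAT), the GC box (GGGCGG) and the core of an ETS site (CGGAAG). These 3 motifs do not overlap in the windows shown.
Fgf7, chr2:126034408-126034657, plus strand: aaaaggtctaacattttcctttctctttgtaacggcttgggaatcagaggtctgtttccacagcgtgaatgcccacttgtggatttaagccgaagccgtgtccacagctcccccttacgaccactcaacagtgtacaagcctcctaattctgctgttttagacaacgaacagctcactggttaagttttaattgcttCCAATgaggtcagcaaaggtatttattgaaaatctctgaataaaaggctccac
This window holds a CCAAT box 53 bases before the start. Among all 32851 promoter windows of this length, 33.8% held a CCAAT box, 32.7% a GC box and 13.6% an ETS core, and among the 28 members with a window 12, 18 and 7 did. A match is a description of the letters and not of a bound site.

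Fgf18, a mesenchymal ligand of late lung development, rose to its highest level at PN0. In A/J, Fgf18 mRNA was 8.1, 8.11 and 8.0 at E15.5, lay between 8.29 and 9.12 in the 15 replicates from E16.5 to E20.5, and was 9.04, 9.34 and 8.99 at PN0. In B6, Fgf18 was 8.16, 8.25 and 8.0 at E15.5, lay between 8.44 and 8.87 in the 9 replicates from E16.5 to E18.5, and was 8.69, 8.91 and 9.09 at PN0. The PN0 litters exceeded all E15.5 litters in each strain. The difference was 1.05 ± 0.1 (adjusted p = 1.65e-10) in A/J and 0.76 ± 0.1 (adjusted p = 1.21e-07) in B6. In A/J the course was not steady, since the mean was 8.96 ± 0.15 at E18.5 and 8.49 ± 0.06 at E19.5, a change of -0.48 ± 0.1 (adjusted p = 0.000747), one of 4 members called lower at this step (14.9%), and the call held with each array centred.

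Fgf10, the mesenchymal ligand that drives branching, was called higher at PN0 in A/J and not in B6. In A/J, Fgf10 mRNA was 7.79, 8.0 and 7.79 at E15.5, lay between 8.01 and 8.8 in the 15 replicates from E16.5 to E20.5, and was 8.28, 8.31 and 8.39 at PN0. In B6, Fgf10 was 7.72, 7.86 and 7.6 at E15.5, lay between 7.91 and 8.54 in the 9 replicates from E16.5 to E18.5, and was 8.04, 7.92 and 7.88 at PN0. The A/J litters at PN0 were above those at E15.5, while the B6 groups came closer, 7.86 being the highest at E15.5 and 7.88 the lowest at PN0. The difference was 0.47 ± 0.09 (adjusted p = 6.63e-05) in A/J and 0.22 (95% interval 0.03 to 0.41) in B6, where it was not called. The test of the difference between these strain changes gave -0.25 (95% interval -0.51 to 0.02), with an interval that includes 0.

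Fgf9, the ligand of epithelium and mesothelium, went the other way. In A/J, Fgf9 mRNA was 7.4, 7.5 and 7.59 at E15.5, lay between 6.52 and 7.81 in the 15 replicates from E16.5 to E20.5, and was 6.56, 7.0 and 6.92 at PN0. In B6, Fgf9 was 7.28, 7.27 and 7.37 at E15.5, lay between 6.6 and 7.66 in the 9 replicates from E16.5 to E18.5, and was 6.34, 6.52 and 6.58 at PN0. The PN0 litters were below all E15.5 litters of their strain. The highest mean was at E16.5 in each strain, 7.68 ± 0.18 in A/J and 7.57 ± 0.08 in B6. PN0 differed from E15.5 by -0.67 ± 0.12 (adjusted p = 2.11e-05) in A/J and -0.83 ± 0.12 (adjusted p = 7.47e-07) in B6. The mean of 3 mesothelium markers (1 of 3 above the array median in all replicates) lay between 7.39 and 7.60 in the A/J litters at E15.5 and between 8.96 and 9.06 at PN0, and in B6 between 7.17 and 7.28 and between 8.65 and 8.73. Of these markers, Msln had by far the widest range over all replicates, 6.14 to 11.22. Wt1 ranged from 6.42 to 7.3 and Upk3b from 8.52 to 9.54, so the mean leans on 1 gene. The part of cell composition in the Fgf9 difference was not tested.

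Fgf2, the basic FGF, was called lower at PN0 in A/J and not in B6. In A/J, Fgf2 mRNA was 7.47, 7.68 and 7.66 at E15.5, lay between 6.97 and 7.88 in the 15 replicates from E16.5 to E20.5, and was 7.08, 7.21 and 7.04 at PN0. In B6, Fgf2 was 6.98, 7.12 and 7.06 at E15.5, lay between 6.75 and 7.14 in the 9 replicates from E16.5 to E18.5, and was 7.17, 7.02 and 7.03 at PN0. Its groups at E15.5 and PN0 were apart in A/J and overlapped in B6. The difference was -0.49 ± 0.11 (adjusted p = 0.000381) in A/J and 0.02 (95% interval -0.21 to 0.25) in B6. Fgf8 and Fgf22, the other ligands above the array median, had no call between E15.5 and PN0, with values over all 36 replicates from 6.96 to 7.82 and from 6.18 to 6.80.

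**Figure D2:**
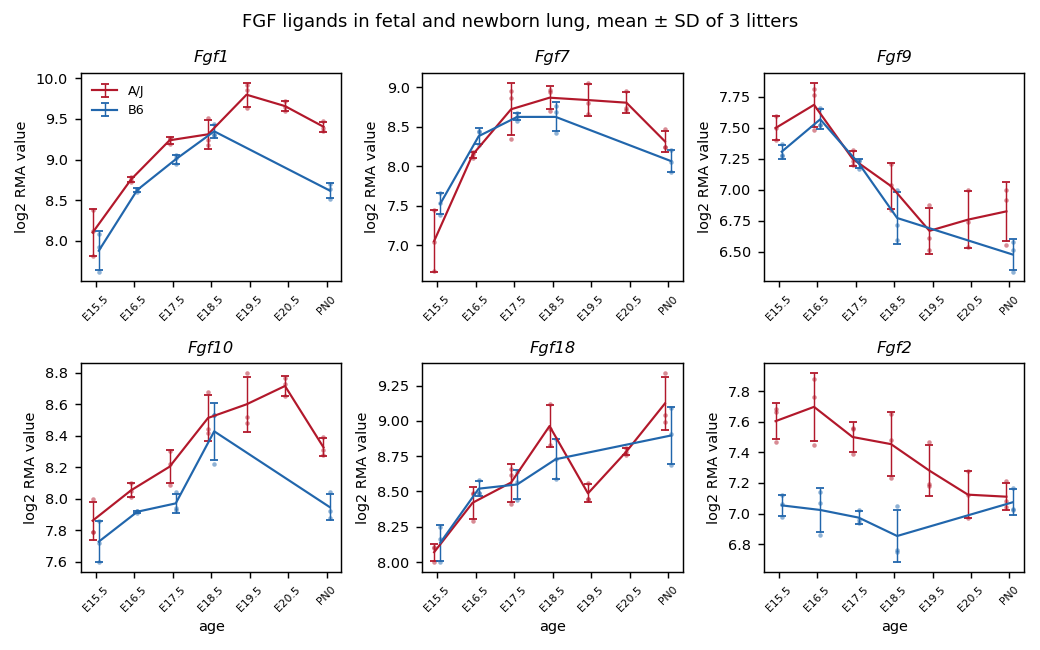
Log2 RMA values (y axis) of 6 ligands by age (x axis) in A/J (red) and B6 (blue). Small points are single litters, lines join the means and bars are SD of 3 litters. B6 has no E19.5 or E20.5 group, so its line runs from E18.5 to PN0. Fgf1 and Fgf7 are lowest at E15.5 and lower at PN0 than at their peak, Fgf9 falls after E16.5, and Fgf2 is lower in B6 than in A/J until E18.5.

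The receptors had unlike courses. Fgfr2, the receptor for Fgf7 and Fgf10 in the epithelium, peaked at E17.5 in each strain. In A/J, Fgfr2 mRNA was 10.2, 10.2 and 10.38 at E15.5, lay between 9.94 and 10.7 in the 15 replicates from E16.5 to E20.5, and was 9.89, 9.78 and 9.77 at PN0. In B6, Fgfr2 was 10.09, 10.26 and 10.31 at E15.5, lay between 10.42 and 10.77 in the 9 replicates from E16.5 to E18.5, and was 10.08, 10.14 and 10.16 at PN0. The A/J litters at PN0 were below all others of the strain. PN0 differed from E15.5 by -0.45 ± 0.08 (adjusted p = 8.32e-06) in A/J and by -0.09 (95% interval -0.25 to 0.06) in B6, where no change was called. The single difference between these strain changes at PN0 had an adjusted p below 0.05. The F test over all shared ages did not (adjusted p = 0.0927). Between the peak and PN0 the mean went from 10.66 ± 0.04 to 9.81 ± 0.07 in A/J and from 10.75 ± 0.02 to 10.13 ± 0.04 in B6.

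Fgfr3, a receptor tyrosine kinase, rose early and stayed above its E15.5 level. In A/J, Fgfr3 mRNA was 8.83, 8.99 and 9.18 at E15.5, lay between 9.36 and 9.98 in the 15 replicates from E16.5 to E20.5, and was 9.7, 9.55 and 9.66 at PN0. In B6, Fgfr3 was 9.09, 9.37 and 9.16 at E15.5, lay between 9.66 and 10.01 in the 9 replicates from E16.5 to E18.5, and was 9.58, 9.75 and 9.7 at PN0. The differences were 0.64 ± 0.08 (adjusted p = 1.21e-07) in A/J and 0.47 ± 0.08 (adjusted p = 1.83e-05) in B6. Fgfr1, the main receptor of the mesenchyme, was not called between E15.5 and PN0, with values from 8.21 to 8.73 in A/J and 8.35 to 8.92 in B6 over all ages. Fgfrl1, a receptor without a kinase domain, fell by 0.51 in A/J (adjusted p = 7.17e-05) and by 0.44 in B6 (adjusted p = 0.000477).

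Fgfr4, a receptor with known roles in alveolar growth, was above its E15.5 level at PN0 in A/J and not in B6. In A/J, Fgfr4 mRNA was 8.59, 8.59 and 8.73 at E15.5, lay between 8.98 and 9.86 in the 15 replicates from E16.5 to E20.5, and was 9.36, 9.29 and 9.32 at PN0. In B6, Fgfr4 was 8.26, 8.45 and 8.26 at E15.5, lay between 8.69 and 9.1 in the 9 replicates from E16.5 to E18.5, and was 8.16, 8.3 and 8.38 at PN0. The PN0 litters of A/J were above, and those of B6 overlapped with, the E15.5 litters of the strain. The difference was 0.69 ± 0.1 (adjusted p = 2.6e-07) in A/J and -0.04 (95% interval -0.24 to 0.15) in B6. The peak was at E20.5 in A/J, 9.77 ± 0.11, and at E18.5 in B6, 9.07 ± 0.03. The test of the difference between the strain changes at PN0 gave -0.73 ± 0.14 (adjusted p = 0.001). The window before its start is shown because no other member differed as much between the strains.
Fgfr4, chr13:55152568-55152817, plus strand: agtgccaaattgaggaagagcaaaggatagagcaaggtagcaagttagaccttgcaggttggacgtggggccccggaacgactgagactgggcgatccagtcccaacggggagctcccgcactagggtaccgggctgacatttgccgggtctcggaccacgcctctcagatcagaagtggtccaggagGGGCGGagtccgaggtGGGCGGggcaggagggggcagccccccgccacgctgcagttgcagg
It holds GC boxes 62 and 46 bases before the start and none of the other 2 motifs.

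Fgfbp1 encodes a secreted carrier that releases FGFs from heparan sulfate. In A/J, Fgfbp1 mRNA was 5.65, 5.48 and 5.74 at E15.5, lay between 5.84 and 7.15 in the 15 replicates from E16.5 to E20.5, and was 6.64, 6.82 and 6.64 at PN0. In B6, Fgfbp1 was 5.66, 5.83 and 5.82 at E15.5, lay between 5.63 and 6.66 in the 9 replicates from E16.5 to E18.5, and was 6.69, 6.5 and 6.57 at PN0. The PN0 litters were above all E15.5 litters in each strain. It rose by 1.08 ± 0.1 (adjusted p = 3.76e-11) in A/J and 0.82 ± 0.1 (adjusted p = 1.27e-08) in B6. Its highest mean was at E18.5, 7.03 ± 0.17 in A/J and 6.63 ± 0.04 in B6. Relative to the array median, the highest of the 12 groups for Fgfbp1 was A/J at E20.5, at 0.52. The peak age of Fgfbp1 in A/J is therefore not settled. Replicate 2 of A/J at PN0, which was 1.80 log2 units above the lowest litter of its group in esophagus genes, had 6.82 for Fgfbp1 against 6.64 and 6.64 in the others. Fgfbp3, the other binding protein, was not called between E15.5 and PN0, with values from 6.37 to 7.06 in A/J and 6.41 to 7.0 in B6 over all ages.

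**Figure D3:**
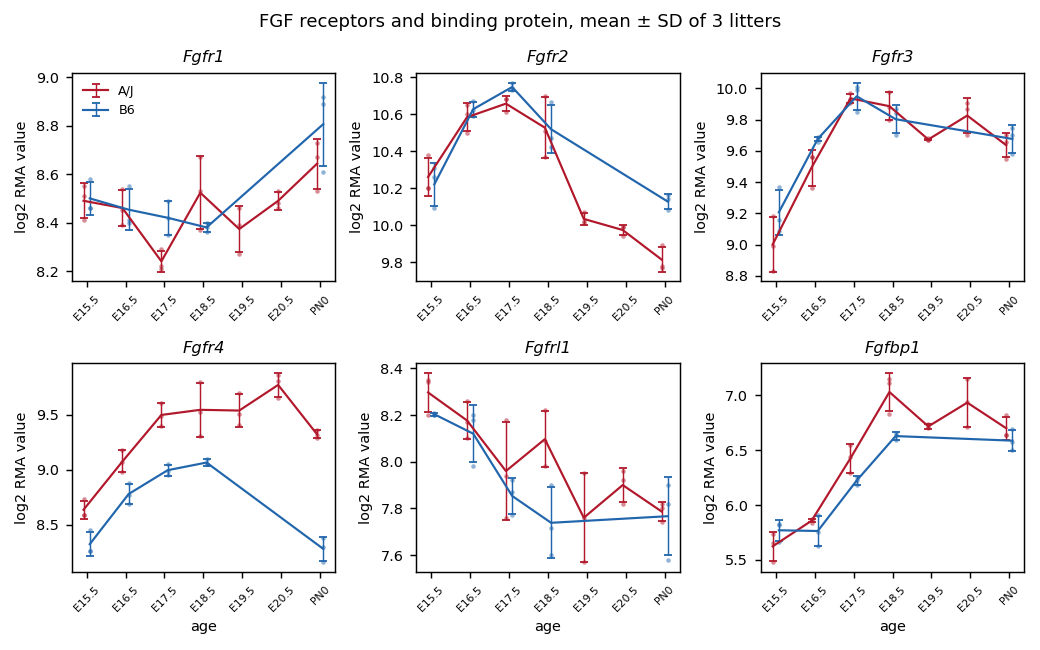
Log2 RMA values (y axis) of 4 FGF receptors, the kinase-free Fgfrl1 and the binding protein Fgfbp1 by age (x axis), with A/J in red and B6 in blue. Points are litters, lines join means and bars are SD of 3 litters. Fgfr2 and Fgfr3 peak at E17.5, and Fgfr4 separates the strains at PN0.

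Spry1 and Spry2, inhibitors of signaling from receptor tyrosine kinases to RAS-MAPK, reached their highest level at PN0 in each strain. In A/J, Spry1 mRNA was 8.11, 7.96 and 8.05 at E15.5, lay between 8.09 and 9.18 in the 15 replicates from E16.5 to E20.5, and was 9.57, 9.53 and 9.55 at PN0. In B6, Spry1 was 7.88, 8.13 and 7.92 at E15.5, lay between 8.1 and 8.85 in the 9 replicates from E16.5 to E18.5, and was 9.57, 9.65 and 9.83 at PN0. No replicate before PN0 reached any PN0 litter of its strain. The difference of Spry1 from E15.5 to PN0 was 1.51 ± 0.09 (adjusted p = 4.3e-15) in A/J and 1.71 ± 0.09 (adjusted p = 2.87e-16) in B6, which is 2.85-fold and 3.26-fold.

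In A/J, Spry2 mRNA was 8.22, 8.22 and 8.18 at E15.5, lay between 8.27 and 9.15 in the 15 replicates from E16.5 to E20.5, and was 9.12, 9.32 and 9.28 at PN0. In B6, Spry2 was 8.18, 8.15 and 8.04 at E15.5, lay between 8.07 and 8.86 in the 9 replicates from E16.5 to E18.5, and was 8.97, 9.16 and 9.22 at PN0. The PN0 litters were above all E15.5 to E17.5 litters of their strain. The differences of Spry2 were 1.03 ± 0.1 (adjusted p = 4.41e-10) and 0.99 ± 0.1 (adjusted p = 1.03e-09). Spry3 was below the array median in all replicates and fell by 0.41 in A/J (adjusted p = 0.00502) and by 0.52 in B6 (adjusted p = 0.000599), a change between values of 4.26 and 5.26. The A/J call was lost without replicate 1 of E15.5, without replicate 1 of PN0, and without the 9 replicates high in esophagus, liver or heart genes.

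Spry4 followed a different course in the strains. In A/J, Spry4 mRNA was 7.55, 7.62 and 7.89 at E15.5, lay between 7.76 and 8.51 in the 15 replicates from E16.5 to E20.5, and was 8.21, 8.67 and 8.28 at PN0. In B6, Spry4 was 7.63, 7.88 and 7.64 at E15.5, lay between 7.85 and 8.31 in the 9 replicates from E16.5 to E18.5, and was 7.59, 7.73 and 7.67 at PN0. At PN0 the A/J litters were above, and the B6 litters overlapped with, those at E15.5. The difference was 0.7 ± 0.11 (adjusted p = 1.59e-06) in A/J and -0.05 (95% interval -0.27 to 0.17) in B6, and the test of the difference between these changes gave -0.75 ± 0.15 (adjusted p = 0.00236). Spred2, a membrane inhibitor of the same cascade, was lowest at E17.5 and highest at PN0 in each strain, with means of 9.1 ± 0.12 and 9.93 ± 0.04 in A/J and of 9.03 ± 0.1 and 9.75 ± 0.18 in B6. From E15.5 to PN0 it rose by 0.59 ± 0.09 (adjusted p = 1.66e-06) in A/J and 0.46 ± 0.09 (adjusted p = 7.61e-05) in B6. Spred1 and Spred3 had no call, with values from 9.34 to 10.08 and from 5.86 to 6.61 over all replicates.

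Dusp6, the phosphatase that inactivates ERK, and Etv4, an ETS transcription factor of the distal epithelium, are both known as targets of FGF signaling, and they moved apart. In A/J, Dusp6 mRNA was 9.65, 9.73 and 9.7 at E15.5, lay between 9.73 and 10.61 in the 15 replicates from E16.5 to E20.5, and was 10.19, 10.5 and 10.19 at PN0. In B6, Dusp6 was 9.56, 9.74 and 9.69 at E15.5, lay between 9.65 and 10.16 in the 9 replicates from E16.5 to E18.5, and was 9.71, 10.02 and 10.12 at PN0. All A/J litters at PN0 were above those at E15.5, while in B6 the PN0 value of 9.71 lay among the E15.5 litters. Dusp6 rose by 0.6 ± 0.11 (adjusted p = 2.11e-05) in A/J. In B6 the difference was 0.29 (95% interval 0.06 to 0.51) and was not called. The F test of whether the changes of Dusp6 from E15.5 differed between the strains was not called (adjusted p = 0.349).

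In A/J, Etv4 mRNA was 7.37, 7.24 and 7.35 at E15.5, lay between 5.81 and 7.26 in the 15 replicates from E16.5 to E20.5, and was 6.13, 5.99 and 6.08 at PN0. In B6, Etv4 was 7.21, 7.22 and 6.94 at E15.5, lay between 6.0 and 6.87 in the 9 replicates from E16.5 to E18.5, and was 6.0, 6.34 and 6.1 at PN0. In each strain every PN0 litter was below every E15.5 litter. Etv4 was 2.38-fold lower at PN0 in A/J (adjusted p = 5.29e-09) and 1.97-fold lower in B6 (adjusted p = 5.86e-07), and its highest mean was at E15.5 in each. The mean of 4 proliferation markers (2 of 4 above the array median in all replicates) lay between 10.41 and 10.47 in the A/J litters at E15.5 and between 6.22 and 6.73 at PN0, and in B6 between 10.46 and 10.54 and between 7.24 and 7.29. Their part in the Etv4 difference was not tested.

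The windows before the starts of 3 feedback genes that rose in A/J are shown to set their letters side by side.
Spry1, chr3:37639697-37639946, plus strand: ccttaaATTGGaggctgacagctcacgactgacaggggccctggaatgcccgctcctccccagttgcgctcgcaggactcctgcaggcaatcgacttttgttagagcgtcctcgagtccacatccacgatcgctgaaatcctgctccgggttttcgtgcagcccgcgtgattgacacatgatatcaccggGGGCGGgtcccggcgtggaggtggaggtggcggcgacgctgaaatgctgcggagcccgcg
Spry2, chr14:105896820-105897069, minus strand: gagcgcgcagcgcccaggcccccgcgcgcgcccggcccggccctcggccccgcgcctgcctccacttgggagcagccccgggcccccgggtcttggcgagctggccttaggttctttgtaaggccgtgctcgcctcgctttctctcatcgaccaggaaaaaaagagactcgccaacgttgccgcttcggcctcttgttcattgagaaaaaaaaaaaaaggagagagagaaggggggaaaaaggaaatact
Dusp6, chr10:99262981-99263230, plus strand: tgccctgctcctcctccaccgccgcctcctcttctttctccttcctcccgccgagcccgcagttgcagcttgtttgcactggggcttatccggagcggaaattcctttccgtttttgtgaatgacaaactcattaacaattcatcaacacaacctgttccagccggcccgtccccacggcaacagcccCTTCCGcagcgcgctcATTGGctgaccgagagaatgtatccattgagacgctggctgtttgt
The Dusp6 window holds an ETS core on the opposite strand 62 bases before the start and a CCAAT box 46 bases before it. The Spry1 window holds a GC box 60 bases before the start and a CCAAT box 244 bases before it, and the Spry2 window holds none of the 3 motifs. The GC content was 62.4% for Spry1 and Spry2 and 56.4% for Dusp6.

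**Figure D4:**
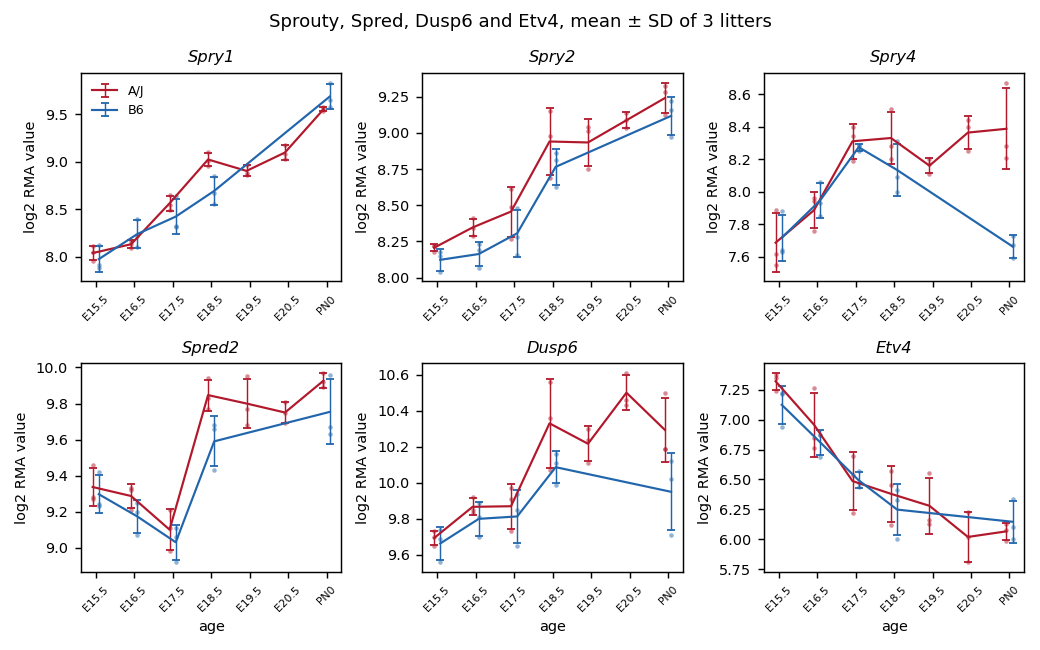
Log2 RMA values (y axis) of Spry1, Spry2, Spry4, Spred2, Dusp6 and Etv4 by age (x axis) in A/J (red) and B6 (blue). Points are litters, lines join means and bars are SD of 3 litters. Spry1 and Spry2 are highest at PN0 in both strains, Etv4 falls from E15.5, and Spry4 in B6 is near its E15.5 level at PN0.

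The step across birth was compared within each strain, between E20.5 and PN0 in A/J and between E18.5 and PN0 in B6. The B6 step is the longer one, so that its size is given beside the A/J value without a test between them. In A/J, 2 members were higher at PN0 (8.11% of all probe sets), Spry1 and Fgf18. There 6 were lower (6%), Fgf7, Fgf10, Fgf11, Fgf16, Fgf20 and Fgfr4. Fgf20 lost its call with centred arrays, and Fgf16 and Fgf20 were below the array median in all 36 replicates. The esophagus and upper airway marker mean was 5.70, 7.44 and 7.37 in A/J at E20.5 and 5.82, 7.52 and 5.72 at PN0. Its part in this step was not tested. In B6, 3 were higher (9.02%), Spry1, Spry2 and Fgfr1, and 7 were lower (10.6%), Fgf1, Fgf7, Fgf10, Fgf11, Fgfr2, Fgfr4 and Spry4.

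Fgf7 was 8.96, 8.74 and 8.72 in A/J at E20.5 and 8.24, 8.47 and 8.24 at PN0, a change of -0.49 ± 0.15 (adjusted p = 0.0161), and changed by -0.56 ± 0.15 (adjusted p = 0.00414) in B6. Fgf10 was 8.77, 8.73 and 8.65 at E20.5 and 8.28, 8.31 and 8.39 at PN0 in A/J, a change of -0.39 ± 0.09 (adjusted p = 0.00255), beside -0.48 ± 0.09 (adjusted p = 0.000163) in B6. For these mesenchymal ligands the groups did not overlap in either strain. The mean of 4 mesenchymal markers (4 of 4 above the array median in all replicates) was also lower, between 11.12 and 11.18 in the A/J litters at E20.5 and between 10.88 and 11.01 at PN0, and between 11.04 and 11.21 in the B6 litters at E18.5 and between 10.66 and 10.80 at PN0. Their part in the result was not tested.

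Fgfr4 was 9.65, 9.81 and 9.86 at E20.5 in A/J and 9.36, 9.29 and 9.32 at PN0, and its change was -0.45 ± 0.1 (adjusted p = 0.000859) in A/J and -0.79 ± 0.1 (adjusted p = 2.25e-07) in B6. Spry1 moved the other way, from 9.03, 9.08 and 9.18 to 9.57, 9.53 and 9.55 in A/J and from 8.67, 8.56 and 8.85 to 9.57, 9.65 and 9.83 in B6. No litter before birth reached a litter after birth for Spry1 in either strain. The changes were 0.45 ± 0.09 (adjusted p = 0.000518) in A/J and 0.99 ± 0.09 (adjusted p = 1.97e-09) in B6. Between E19.5 and E20.5 in A/J no member was called, in an interval in which 0.675% of all probe sets were.

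The strains were compared at the 5 shared age labels, with differences as B6 minus A/J. At E15.5, 1 member was higher in B6 (1.23% of all probe sets) and 1 was lower (0.978%). At E16.5 there was also 1 higher (2.77%) and 1 lower (3.27%), and at E17.5 1 higher (3.45%) and 2 lower (4.43%). At E18.5, 1 was higher (3.25%) and 6 were lower (17.2%). With each array centred on its median, which removes a shift of -0.13 over all probe sets, 2 remained lower at E18.5 and 1 higher. Among all 21789 probe sets, centring took those called lower from 3752 to 1846 and those called higher from 709 to 1202. Of all calls, 39.4% were then toward higher in B6 instead of 15.9%. At PN0, 1 was higher (4.96%) and 7 were lower (9.29%). Centring moved the share of calls toward higher in B6 from 45.9% to 35.3% at E16.5 and from 43.8% to 18.8% at E17.5 over all probe sets, and added only Fgfr4 as lower at E16.5 among the members.

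Fgf2 was lower in B6 at each fetal age. Its values were 7.47, 7.68 and 7.66 in A/J and 6.98, 7.12 and 7.06 in B6 at E15.5, 7.45, 7.88 and 7.76 and 7.07, 7.14 and 6.86 at E16.5, 7.56, 7.55 and 7.39 and 6.96, 7.02 and 6.94 at E17.5, and 7.65, 7.48 and 7.23 and 6.75, 7.05 and 6.76 at E18.5. No B6 litter reached an A/J litter at these 4 ages. The differences were -0.55 ± 0.11 (adjusted p = 0.00299), -0.67 ± 0.11 (adjusted p = 0.000297), -0.53 ± 0.11 (adjusted p = 0.00245) and -0.6 ± 0.11 (adjusted p = 0.000237), and each call held with each array centred. At PN0 the difference was -0.04 (95% interval -0.27 to 0.19) and the litters overlapped. Without the 9 replicates high in esophagus, liver or heart genes, the difference was -0.58 at E15.5 (adjusted p = 0.0542). At E17.5, where 1 B6 litter was left, it was -0.54. The other 2 calls stayed, but none of the 9 was an E18.5 litter, so the difference at E18.5 could not change.

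Fgfr4 was lower in B6 from E17.5. At PN0 it was 9.36, 9.29 and 9.32 in A/J and 8.16, 8.3 and 8.38 in B6, with a wide gap between the groups. The differences at the 5 ages were -0.31, -0.3, -0.5, -0.48 and -1.04, called from E17.5 on, and the one at PN0 had an SE of 0.1 and an adjusted p of 3.17e-09. The calls at E18.5 and PN0 held with centred arrays and without the 9 replicates. None of the 9 was an E18.5 litter, so the E18.5 difference itself could not change in that fit. At E17.5 the value without the 9 replicates was -0.45, with 1 B6 litter left.

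At PN0, Fgf1, Fgf10 and Spry4 were also lower in B6. Fgf1 was 9.35, 9.47 and 9.39 in A/J and 8.7, 8.52 and 8.64 in B6, a difference of -0.78 ± 0.11 (adjusted p = 4.29e-06). Spry4 was 8.21, 8.67 and 8.28 and 7.59, 7.73 and 7.67, a difference of -0.72 ± 0.11 (adjusted p = 1.28e-05). Fgf10 was 8.28, 8.31 and 8.39 and 8.04, 7.92 and 7.88, a difference of -0.38 ± 0.09 (adjusted p = 0.00333). None of these groups overlapped, and the Fgf10 call was lost with quantile normalization.

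Dusp6, at -0.34 ± 0.11 (adjusted p = 0.0246), Fgf9, at -0.35 ± 0.12 (adjusted p = 0.043) and Fgf12, at -0.34 ± 0.12 (adjusted p = 0.0466), were called lower in B6 at PN0 with smaller differences. Dusp6 lost its call without replicate 2 of A/J or without replicate 1 of B6 at PN0, with quantile normalization and with only the compared groups in the fit, and its smallest difference over all alternatives was -0.22. Fgf9 lost it without any 1 of 4 of the 6 PN0 litters, and Fgf12 without any 1 of 17 of the 36 litters. Without the 9 replicates high in esophagus, liver or heart genes none of these 3 was called, with differences of -0.24 for Dusp6 (adjusted p = 0.225), -0.26 for Fgf9 (adjusted p = 0.258) and -0.19 for Fgf12 (adjusted p = 0.397). The mesenchymal marker mean at PN0 was 10.88 to 11.01 over the A/J litters and 10.66 to 10.80 over the B6 litters, that of 4 type I cell markers 10.91 to 11.02 and 10.34 to 10.4, and that of proliferation markers 6.22 to 6.73 and 7.24 to 7.29. Their part in the strain differences was not tested.

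At E18.5 the members called lower in B6 besides Fgf2 and Fgfr4 were Spry1, Fgfbp1, Fgfrl1 and Fgf11. Spry1 was 9.1, 9.01 and 8.96 in A/J and 8.67, 8.56 and 8.85 in B6, and Fgfbp1 was 7.11, 6.83 and 7.15 and 6.66, 6.63 and 6.59. Fgfrl1 was 8.09, 8.22 and 7.98 in A/J and 7.9, 7.71 and 7.6 in B6, and Fgf11, an intracellular homologue, was 6.88, 6.84 and 6.55 and 6.53, 6.46 and 6.27. These groups did not overlap, but the differences of -0.33, -0.4, -0.36 and -0.34 came to -0.24, -0.31, -0.27 and -0.25 with centred arrays, none of them called. Fgf11, Spry1 and Fgfrl1 each lost the call without at least 2 single litters of this age. The mean of 5 esophagus and upper airway markers (0 of 5 above the array median in all replicates) also differed between the strains at E18.5. It lay between 6.93 and 7.20 in the A/J litters and between 5.43 and 6.16 in the B6 litters. Their part in the strain differences at E18.5 was not tested.

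The members called higher in B6 were all below the array median in every replicate. Fgf13, an intracellular homologue, was 5.56, 5.34 and 5.73 in A/J and 5.84, 6.08 and 6.1 in B6 at E15.5, a difference of 0.46 ± 0.11 (adjusted p = 0.013). Fgf21, an endocrine ligand, differed by 0.52 ± 0.12 (adjusted p = 0.00713) at E16.5 and 0.32 ± 0.12 (adjusted p = 0.036) at E18.5. Fgf20, a paracrine ligand, differed by 0.43 ± 0.11 (adjusted p = 0.01) at E17.5 and 0.33 ± 0.11 (adjusted p = 0.0302) at PN0. None of these 3 genes passed a filter that kept the 14148 probe sets above the array median in at least 3 replicates and 25 of the 38 members. Each of these calls was lost without at least 1 single litter, and the one of Fgf20 at PN0 also with centred arrays. Without the 9 replicates the calls of Fgf13 at E15.5 (adjusted p = 0.0755) and of Fgf20 at PN0 (adjusted p = 0.192) were lost. The call of Fgf20 at E17.5 was lost too, with 1 B6 litter left at that age. The call of Fgf21 at E18.5 was lost when array 2b was left out and when it was counted as a replicate of its own.

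**Figure D5:**
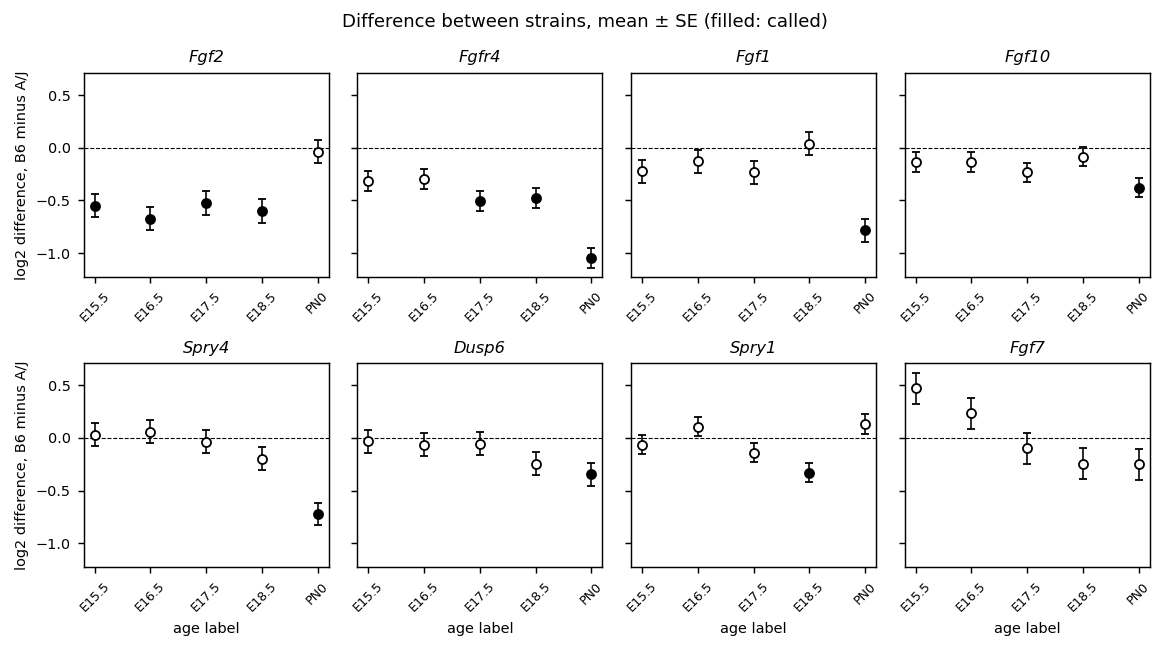
Log2 difference B6 minus A/J (y axis) for 8 members at the 5 shared age labels (x axis). Points are differences of means of 3 litters per strain, bars are ± SE from limma, and filled points are called. Fgf2 lies below 0 at 4 fetal ages and near 0 at PN0, while Fgfr4, Fgf1 and Spry4 are furthest below 0 at PN0.

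On the day before birth, E18.5 in B6 and E19.5 in A/J, 1 member was higher in B6 (3.57% of all probe sets) and 3 were lower (4.05%). Fgfr2 was higher in B6, 10.47, 10.66 and 10.42 against 10.01, 10.02 and 10.07, by 0.48 ± 0.08 (adjusted p = 6.18e-05). Fgf1, Fgfr4 and Fgf2 were lower, at -0.45, -0.47 and -0.43. The Fgf2 call was lost without any 1 of 3 litters of these groups, with only these groups in the fit, and without the 9 replicates high in esophagus, liver or heart genes, where the difference was -0.33 (adjusted p = 0.159).

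Whether the courses themselves differed between the strains was tested by an interaction over the 4 changes from E15.5. It was called for 8 members, Fgf1, Fgf2, Fgf7, Fgf13, Fgf20, Fgfr4, Spry1 and Spry4 (16.2% of all probe sets). Fgfr4 (adjusted p of the F test = 0.00131), Spry4 (0.00245), Fgf1 (0.00399) and Fgf13 (0.0107) kept the call in all 36 fits that left out 1 litter, and without the 9 replicates high in esophagus, liver or heart genes Fgfr4, Fgf1 and Fgf13 did. Fgf2 and Fgf20 kept it in 33 of the 36 fits, Fgf7 in 26 and Spry1 in 9.

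Other genes of the pathway, from a list of 64 of which 57 were measured, were set beside the members for the change from E15.5 to PN0. In A/J 14 were higher and 19 lower, and in B6 17 were higher and 16 lower, with a median of -0.02 and -0.03. Over all probe sets tested, 21.6% were higher and 21.2% lower in A/J, and 20.6% and 22.4% in B6, against which the counts of this list and its subgroups are to be read. Of 10 further feedback genes, 5 were higher and 2 lower in A/J and 6 higher and 1 lower in B6. Dusp1, a phosphatase of MAP kinases induced by stress and growth factors, was higher by 3.51 and 3.49, Ier3, an immediate early gene, by 3.03 and 2.97, Dusp7 by 1.03 and 1.39, and Dusp5 by 0.99 and 0.92. Etv1, a relative of Etv4, differed by -0.64 and -0.82, and Etv5 by -0.66 in A/J and -0.19 in B6, where it was not called.

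Of 13 signal relay genes measured, 3 were higher in each strain (Gab1, Sos2 and Braf) and 1 was lower, Ptpn11 in A/J and Nras in B6. Of 17 heparan sulfate genes, 4 were higher and 7 lower in A/J and 5 higher and 6 lower in B6. The sulfotransferase Hs6st2 differed by -1.68 and -1.73, the sulfatase Sulf1 by -1.37 and -1.42, and the syndecans Sdc2 by -0.81 and -0.85 and Sdc1 by 0.76 and 0.90. The FLRT proteins, membrane partners of FGF receptors, moved apart, with Flrt2 at -1.76 and -2.0 and Flrt3 at 1.27 and 1.1. The splicing factors that set the epithelial form of Fgfr2 did so too, with Esrp1 at -0.54 and -0.52 and Esrp2 at 0.69 and 0.53. Of 10 genes of the distal tip of the airways and its branching partners, none was higher and 7 were lower in A/J. In B6, 6 were lower and 1 was higher, Tbx4, which is also 1 of the mesenchymal markers used here. Among those lower in both strains were Mycn (-2.13 and -2.29), Sox9 (-1.89 and -1.70) and Shh (-0.97 and -1.19).

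The remaining members had low values. Fgf3, Fgf4, Fgf5, Fgf6, Fgf14, Fgf17 and Fgf23 had no call between E15.5 and PN0 in either strain, and all but Fgf4 were below the array median in all 36 replicates. Fgf15, the endocrine ligand of the bile acid axis, and Fgf16 were called lower at PN0 in A/J, at -0.33 and -0.34, as was Fgf20 at -0.54, and Fgf12 was called higher, at 0.47. In B6, Fgf11 and Fgf13 were called lower, at -0.38 and -0.55. The calls of Fgf15, Fgf16 and Fgf12 in A/J were lost without replicate 2 of PN0 and without the 9 replicates high in genes of neighboring tissues, and those of Fgf15 and Fgf16 also without replicate 3 of E15.5. The call of Fgf11 in B6 was lost without replicate 3 of PN0.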

How the data were processed

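RNA of right lungs was hybridized to Affymetrix Mouse Gene 1.0 ST arrays, 37 arrays for 36 replicates in 12 groups. The authors deposited log2 values made by RMA (background correction, quantile normalization and probe set summary) in Affymetrix Expression Console 1.1. These values were used as deposited, and the pair of B6 arrays labelled 2 and 2b (E18.5) entered as their mean, since the labels do not say that 2b is another litter. RMA compresses differences of dim probe sets, and array values give no read depth. The number of arrays limits the precision.

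Gene symbols came from the platform annotation, in which 21789 of 35556 probe sets had 1 symbol, 1621 had several and 12146 had none. One mean per group was fitted over the 21789 probe sets with limma 3.58.1 in R 4.3.3 (24 residual degrees of freedom), with Benjamini-Hochberg adjustment over all of them. The adjusted p values in the text are from this fit, except those given for a fit without 1 replicate or without the 9 replicates. A difference was called at an adjusted p below 0.05 and a log2 difference of at least 0.32, a change over time at 0.01 and a fold of 2, and the interaction at 0.05. The fit was tested on simulated data. Python 3.11.15 and its matplotlib 3.10.9 library made the plots.

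Members called over time or between strains were named, those above the array median with their litters at E15.5 and PN0 and the range between. Up to 4 pathway genes per subgroup, called in both strains, were named by mean size of change, and Etv1, Etv5, Ptpn11 and Nras were named after their values were seen. The members and lists were chosen with earlier results of these data known. Alternatives were centring, quantile normalization, other probe set filters, prior settings, fewer groups, array 2b, a replicate block, other thresholds and leaving out each replicate. Leaving out the 9 replicates high in esophagus, liver or heart genes was chosen after seeing the data. Replicate numbers were not used for pairing, since litters with equal numbers did not deviate together. The functional Bayesian time course method named in the methods was not run.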

Additional observations from a re-analysis of the deposited data

Results flagged for a closer look

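The change from E15.5 differed between the strains, by the interaction F test of limma, for 8 members. The value given is the age at which the difference of change, B6 minus A/J on the log2 scale, was largest for the gene.

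Lower changes in B6 were found at PN0 for Spry4, -0.75 ± 0.15 (SE; adjusted p = 0.00236), Fgfr4, -0.73 ± 0.14 (adjusted p = 0.001), Fgf7, -0.72 ± 0.21 (adjusted p = 0.0331), and Fgf1, -0.56 ± 0.15 (adjusted p = 0.0247). At E18.5 the difference was -0.77 ± 0.15 for Fgf13 (adjusted p = 0.00361) and -0.27 ± 0.13 for Spry1, where the single difference was not past the threshold (adjusted p = 0.213). A higher change in B6 was found for Fgf20 at E17.5, 0.64 ± 0.15 (adjusted p = 0.0433). For Fgf2 at PN0 the single difference was 0.51 ± 0.16 and not past the threshold (adjusted p = 0.0503). Fgf13 and Fgf20 were below the array median in every replicate. Replicate 1 of A/J at E15.5 and replicate 1 of B6 at E15.5, the baseline of all 8 values, were high in liver and heart genes, and without the 9 replicates high in genes of neighboring tissues the F test of Fgf1, Fgf13 and Fgfr4 stayed below 0.05, while those of Spry4 (0.0734), Fgf2 (0.0716), Spry1 (0.0742), Fgf7 (0.248) and Fgf20 (0.441) did not.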

How the results depend on the processing

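The 62 differences recomputed under the alternatives were those called in the main fit for PN0 against E15.5, between the strains, and for E18.5 against E19.5. None changed sign, which could be foreseen for differences chosen by their calls, as most alternatives left out 1 replicate. Differences that were not called, other steps, differences of change and single pathway genes were not recomputed. A fold of 1.5 left 2 of 9 members lower at PN0 in A/J, 5 of 8 higher and 2 of 6 lower in B6, 5 of 17 strain calls toward lower and 0 of 5 toward higher in B6, 0 of 4 between E18.5 and E19.5, 12 of 19 pathway genes lower in A/J and 9 of 17 higher in B6. For change over time it gave 17 members in A/J and 15 in B6, and the adjusted p alone 22 and 22. No share over all probe sets is given beside these counts. The strain calls toward lower became 11 with quantile normalization, 11 with only the compared groups and 11 without the 9 replicates high in neighboring tissues. Those toward higher became 0 with the filter on dim probe sets, 3 with only the compared groups and 2 without the 9 replicates, which left 3 interaction calls. The dim filter left 5 members lower at PN0 in A/J. Fewer probe sets, groups or samples are part of these alternatives, and other causes were not tested.

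Leaving out 1 replicate gave 7 to 10 members changed over time in A/J and 4 to 5 in B6, 12 to 13 higher and 7 to 12 lower at PN0 in A/J, 8 to 10 and 5 to 7 in B6, 14 to 19 strain calls toward lower and 4 to 6 toward higher, 3 to 4 between E18.5 and E19.5, and 6 to 9 interaction calls. Pathway counts were 14 higher and 18 to 19 lower in A/J, and 17 and 16 to 18 in B6.

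With the replicate block, 16 strain calls toward lower and 7 interaction calls were made, and the Fgf9 call at PN0 was lost. Litters with equal numbers had correlations of their deviations from -0.41 to 0.39 (198 pairs, median -0.02), and 6 of 36 correlated best with their own number.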
